A study of Homo sapiens and Homo sapiens
Mus with 12 samples.

Results

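The genes described here were CA2, CA9 and CA12, which encode carbonic anhydrases, and SLC4A7, which encodes a sodium bicarbonate cotransporter. These 4 genes were named for their role in acid-base balance, and all 4 are listed in both human count tables, among 21466 genes with values in the table of cultured cells and 26813 human genes in the table of tumors. CA12 was chosen by its measured rise in tumors with CDH11 knockdown (KD), so its levels in CDH11 KD against control tumors are given as a description without a test. After the low-count filter, CA9, CA12 and SLC4A7 were tested in cultured cells, and CA12 and SLC4A7 in tumors. CA2 was below the filter in both systems, and CA9 was below it in tumors.

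The study asked what CDH11, a cell adhesion cadherin, does in bladder cancer cells. UM-UC-3 is a human bladder cancer cell line, and RNA was sequenced from 9 libraries of cultured cells, 3 each of shCtrl, sh#1 and sh#2. RNA was also sequenced from 15 xenograft tumors, 5 per group. All cells, controls included, carried a GIPZ lentiviral vector with a short hairpin and GFP and had been sorted for GFP, so each group was an infected pool. shCtrl carried a non-silencing hairpin, and sh#1 and sh#2 carried separate hairpins against CDH11. The sh#1 and sh#2 samples together are called CDH11 KD. Tumors grew under the skin of male BALB/cAJcl-nu/nu nude mice, aged 5 weeks at injection in Matrigel, and were taken after 4 weeks. Nude mice lack T cells but keep other immune cells. The labels do not say that cultured libraries came from separate cultures, or that each tumor came from its own mouse. SDs and p-values therefore measure only the spread between these samples, which may be technical in culture and may include tumors of the same mouse.

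Carbonic anhydrases speed the conversion of carbon dioxide and water to bicarbonate and a proton. CA9 and CA12 sit in the plasma membrane with the catalytic domain outside the cell, whereas CA2 works in the cytosol. SLC4A7 carries sodium and bicarbonate into the cell and so raises intracellular pH. CA9 is a widely used marker of hypoxia, since its promoter is a direct target of the hypoxia-inducible factors, and CA12 is also known as a gene that hypoxia can induce in some tumors.

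Totals counted on genes ranged from 2273182 to 2777019 in cultured libraries, and human totals from 414849 to 1248977 in tumors. The targeted gene was near the detection limit in culture, with 10 counts summed over the shCtrl libraries, 1 over sh#1 and 3 over sh#2. The study reported that both mRNA and protein of CDH11 were significantly lower in cultured CDH11 KD cells than with shCtrl. In tumors CDH11 had 5 to 32 counts with shCtrl, 1 to 9 with sh#1 and 2 to 14 with sh#2, and its log2 difference in CDH11 KD was -1.13 ± 0.33 (SE; edgeR adjusted p = 0.112). With sh#1 it was -1.67 ± 0.40 (edgeR adjusted p = 0.0260), past the threshold of 0.1, and with sh#2 it was -0.73 ± 0.35 (edgeR adjusted p = 0.347). The difference of sh#1 from sh#2, -0.94 ± 0.45, did not pass (edgeR adjusted p = 0.482). Mouse Cdh11 had 9 to 30 counts in the same shCtrl tumors, 1 to 28 with sh#1 and 7 to 30 with sh#2. Its medians were 23, 5 and 17 counts. Whether mouse reads entered the human CDH11 counts was not tested. Each tumor group was sequenced in a library mix of its own (mix 1 for shCtrl, mix 2 for sh#1, mix 3 for sh#2), so group and mix cannot be told apart. One library stood apart, sh#1 tumor 1, with the lowest human total and a mouse share of 30.0% of counts against 10.4% to 18.8% in the others. In the cultured line VIM, KRT8, KRT18 and CD44 were detected in every library, KRT19 had at most 3 counts, and the epithelial marker EPCAM was at 0.

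The promoters are shown because CA9 and CA12 belong to the hypoxia-responsive carbonic anhydrases. The core letters of the element bound by hypoxia-inducible factors, ACGTG or GCGTG, were searched on both strands of the 250 bases before each RefSeq start (GRCh38.p14). Sequences run 5′ to 3′ on the gene's strand, and capitals mark the core letters. CACGT and CACGC are cores read on the opposite strand.
CA9, chr9:35673678-35673927, plus strand: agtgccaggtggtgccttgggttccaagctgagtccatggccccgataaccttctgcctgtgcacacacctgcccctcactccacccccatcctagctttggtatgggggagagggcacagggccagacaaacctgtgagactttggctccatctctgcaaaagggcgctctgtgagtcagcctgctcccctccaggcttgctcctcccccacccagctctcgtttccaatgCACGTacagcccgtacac
CA12, chr15:63381847-63382096, minus strand: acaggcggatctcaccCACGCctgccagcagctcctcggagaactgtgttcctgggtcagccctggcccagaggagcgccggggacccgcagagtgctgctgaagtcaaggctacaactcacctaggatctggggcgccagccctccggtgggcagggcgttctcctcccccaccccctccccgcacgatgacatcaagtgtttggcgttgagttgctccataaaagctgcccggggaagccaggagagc
SLC4A7, chr3:27484385-27484634, minus strand: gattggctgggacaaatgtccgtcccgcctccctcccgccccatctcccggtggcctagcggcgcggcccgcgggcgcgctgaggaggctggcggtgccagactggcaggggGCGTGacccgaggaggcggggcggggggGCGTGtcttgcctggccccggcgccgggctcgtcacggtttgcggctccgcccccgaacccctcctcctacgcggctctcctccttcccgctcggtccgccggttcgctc

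CA9 held 1 core, ACGTG, from base -18 to base -14 relative to the start. CA12 held 1 core, GCGTG, from base -234 to base -230. SLC4A7 held 2 cores, both GCGTG, in the window shown, and 0 in a window before its other listed start. Of 35116 promoter windows of the same length, 43.2% held at least 1 core and 19.4% held 2 or more, so a core in these windows is common. A match is a description of letters and not of a bound site. In GENCODE on hg38, CA9 (ENSG00000107159) lies on chromosome 9 from 35673928 to 35681159 on the plus strand with 11 exons in its canonical transcript. CA12 (ENSG00000074410) spans 63321378 to 63381846 on the minus strand of chromosome 15, also with 11 exons. SLC4A7 (ENSG00000033867) spans 27372721 to 27484420 on the minus strand of chromosome 3, with 26 exons.

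In cultured cells CA9 and CA12 were higher with sh#2 than with shCtrl, by 3.50-fold and 1.80-fold, while SLC4A7 was lower at 0.747 of the control level. With sh#1 none of the 3 genes passed the threshold. Of all 9859 genes tested, 38.3% passed with sh#2, 22.4% with sh#1 and 17.4% in CDH11 KD as a whole, so a call with sh#2 was not rare in these data. Both hairpins were compared with the same shCtrl libraries. The summed level of the line's own markers (KRT8, KRT18, KRT19, VIM, CD44 and EPCAM, 5 of 6 detected) also stood apart with sh#2. It was 4227 to 4611 CPM with sh#2, against 2977 to 3197 with shCtrl and 2954 to 3205 with sh#1. That sum was mostly VIM, with 5189 to 8893 counts per cultured library. CD44 had 796 to 1162, KRT18 287 to 539 and KRT8 253 to 345. The part of this sum in the values of the members was not tested. Levels of single genes below are CPM, read counts scaled to a common library total after TMM, a factor that adjusts each total. Sums of markers are CPM of raw totals, without this factor. Differences are log2 fold changes from edgeR's quasi-likelihood fit over all genes with Benjamini-Hochberg adjusted p.

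CA9 stood at 17.3, 14.4 and 10.3 CPM in the shCtrl libraries. It stood at 17.2, 19.99 and 20.4 CPM with sh#1 and at 51.8, 44.4 and 50.6 CPM with sh#2. These values rest on 27 to 44 counts per library in shCtrl, 42 to 58 in sh#1 and 93 to 111 in sh#2. All sh#2 libraries lay above every other library, and the lowest sh#1 library lay just below the highest shCtrl library. Of all genes tested, 23.7% had every sh#2 library above every shCtrl library, and 19.4% had every sh#2 library above every sh#1 library.

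The log2 difference of CA9 from shCtrl was 1.81 ± 0.17 (SE) with sh#2 (edgeR adjusted p = 4.74e-13) and 0.46 ± 0.20 with sh#1 (edgeR adjusted p = 0.0843). The hairpins themselves differed, as they did for 24.7% of all genes tested, with sh#1 lower than sh#2 by a log2 difference of -1.34 ± 0.16 (edgeR adjusted p = 2.39e-09). For CDH11 KD as a whole the log2 difference was 1.26 ± 0.46 with a 95% interval from 0.22 to 2.30 and did not pass the threshold of 0.05 (edgeR adjusted p = 0.0923), although 6 of 6 libraries lay above the shCtrl mean. That call depended on the fit. DESeq2 gave 1.28 (adjusted p = 0.0402). A model with the hairpins as separate groups gave a mean of 1.14 (edgeR adjusted p = 1.06e-07). The p of that model rests on spread between libraries within a hairpin and leaves out the difference between hairpins. Without sh#1 replicate 1 the pooled CA9 value also passed, at 1.40 (edgeR adjusted p = 0.0417).

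CA9 shares 571 exonic bases with ARHGEF39 on the opposite strand, from 35673928 to 35675866 on chromosome 9, and whether counting used strand is not given in the sources used here. Reads in the shared bases may therefore belong to either gene. ARHGEF39 had 28 to 70 counts per cultured library, and its log2 difference with sh#2 was 0.10 ± 0.20 (edgeR adjusted p = 0.731).

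CA12 stood at 589, 623 and 599 CPM in shCtrl cells. It stood at 581, 543 and 536 CPM with sh#1 and at 1025, 1093 and 1142 CPM with sh#2. With 1249 to 2345 counts per library, CA12 was the member with the most counts. The 3 sh#2 libraries lay far above the rest, and the 3 sh#1 libraries lay slightly below every shCtrl library. Of all genes tested, 17.8% had every sh#1 library below every shCtrl library.

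The rise of CA12 with sh#2 was a log2 difference of 0.85 ± 0.06 (edgeR adjusted p = 5.87e-18). With sh#1 the value was -0.13 ± 0.06, with a 95% interval from -0.25 to -0.01 before adjustment over genes (edgeR adjusted p = 0.132). The difference between sh#1 and sh#2 was -0.97 ± 0.06 (edgeR adjusted p = 1.20e-19). With the hairpins on opposite sides of shCtrl, the pooled value for CDH11 KD of 0.44 ± 0.30 (95% interval -0.26 to 1.14) did not pass the threshold (edgeR adjusted p = 0.368). In the model with hairpins as separate groups, their mean was 0.36 (edgeR adjusted p = 1.28e-07). That p leaves out the difference between hairpins, so it does not show a rise shared by both.

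SLC4A7 stood at 91.3, 98.8 and 86.9 CPM in shCtrl cells. It stood at 81.6, 84.3 and 81.7 CPM with sh#1 and at 62.1, 72.6 and 72.1 CPM with sh#2. All 6 CDH11 KD libraries lay below every shCtrl library, as did those of 10.6% of all genes tested, and the mean was lowest with sh#2. In contrast to CA9 and CA12, SLC4A7 fell with sh#2, with a log2 difference of -0.42 ± 0.10 (edgeR adjusted p = 0.000918). With sh#1 the difference was -0.16 ± 0.10 (95% interval -0.36 to 0.04, edgeR adjusted p = 0.255). The difference between sh#1 and sh#2 was 0.26 ± 0.11 (edgeR adjusted p = 0.0638), and that of CDH11 KD was -0.28 ± 0.11 (edgeR adjusted p = 0.0846). The model with hairpins as separate groups gave -0.29 for CDH11 KD (edgeR adjusted p = 0.00638, again from spread within hairpins only). Upper quartile scaling gave 0.28 between the hairpins (edgeR adjusted p = 0.0487).

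CA2 was close to absent from the counts of cultured cells. It had 1, 1 and 3 counts in shCtrl, 4, 3 and 3 with sh#1, and 2, 2 and 2 with sh#2. A floor of 3 counts corresponded to 1.06 to 1.46 CPM in these libraries. Mean levels were 0.649 ± 0.428 CPM (SD, n = 3) in shCtrl and 1.14 ± 0.279 CPM (SD, n = 6) in CDH11 KD, and the difference of 0.495 CPM was not detectable at this depth (two-sided exact permutation p = 0.119). The ratio of pooled counts, scaled to library size, was 1.75 with a 95% counting interval from 0.614 to 6.12.

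**Figure D1:**
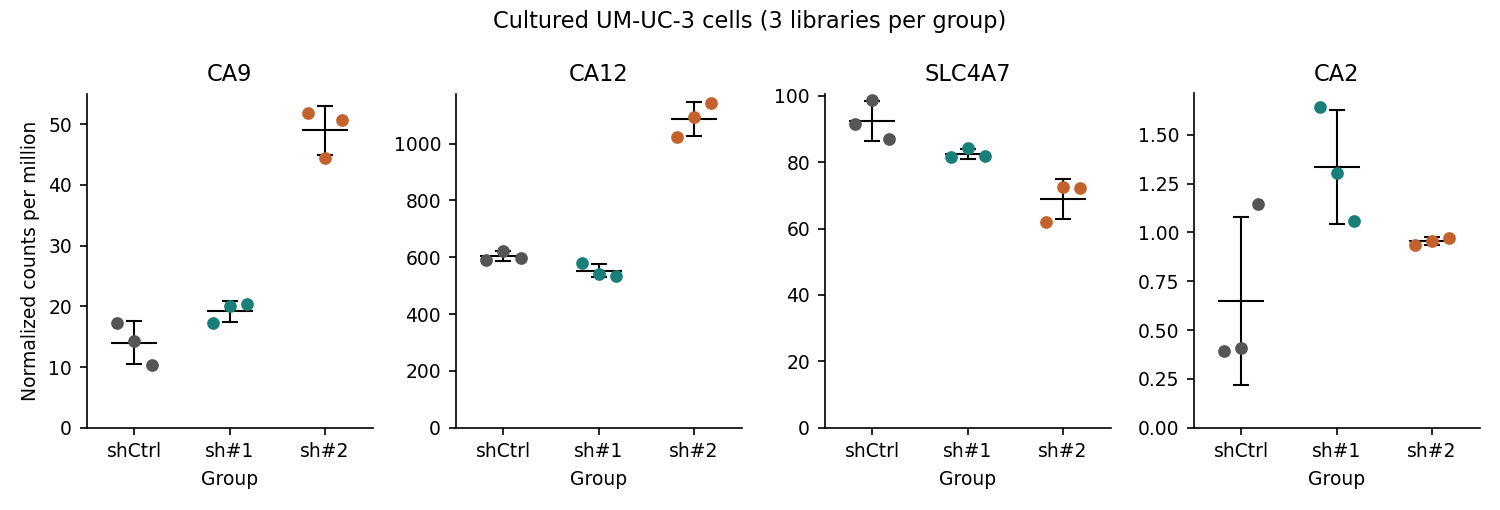
Normalized CPM of CA9, CA12, SLC4A7 and CA2 in cultured UM-UC-3 cells with shCtrl, sh#1 and sh#2, each panel on its own linear axis from 0. Points are libraries (3 per group), horizontal lines are means and bars are ± 1 SD. The sh#2 libraries of CA9 lie between 44.4 and 51.8 and those of CA12 between 1025 and 1142, above all others, while SLC4A7 has its lowest mean with sh#2.

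In tumors CA12 was higher with each hairpin, at a mean of 75.9 CPM with sh#1 and 91.3 CPM with sh#2 against 36.5 CPM with shCtrl, the pattern for which it was chosen. SLC4A7 did not pass the threshold with either hairpin. CA9 and CA2 had at most 6 human counts per tumor.

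CA12 stood at 33.7, 24.9, 34.2, 51.6 and 38.3 CPM in shCtrl tumors 1 to 5. It stood at 91.6, 78.0, 50.9, 90.3 and 68.7 CPM with sh#1 and at 41.2, 144, 95.8, 82.2 and 93.6 CPM with sh#2. Counts per tumor were 23 to 58, 33 to 83 and 29 to 107. All 10 CDH11 KD tumors lay above the shCtrl mean, and 2 of them, sh#1 tumor 3 and sh#2 tumor 1, lay below the highest shCtrl tumor. The log2 difference was 1.17 ± 0.23 (SE) for CDH11 KD, 1.02 ± 0.27 with sh#1 and 1.31 ± 0.26 with sh#2, given without a test. In this comparison 1.51% of 9184 genes passed the threshold of 0.1, a share from which nothing is read here about CA12.

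The rule made no use of the difference between the hairpins in tumors. That difference of CA12 was -0.30 ± 0.24 for sh#1 against sh#2, with a 95% interval from -0.81 to 0.22 (edgeR adjusted p = 0.740). It moved with single tumors, to -0.07 without sh#2 tumor 2, -0.17 without sh#1 tumor 3 and -0.47 without sh#2 tumor 1. Whether the hairpins differed less in tumors than in culture was not tested. The mouse share of counts had medians of 11.8% with shCtrl, 11.3% with sh#1 and 14.4% with sh#2. When the log2 mouse-to-human ratio of each tumor entered the model, the CA12 value for CDH11 KD was 1.05, and without sh#1 tumor 1 it was 1.16. Summed mouse fibroblast markers (5 of 5 detected) ranged from 6967 to 18067 CPM of mouse counts with shCtrl, 1686 to 12562 with sh#1 and 5351 to 20208 with sh#2. Their medians were 10173, 7431 and 13029 CPM. Summed macrophage and leukocyte markers (5 of 5 detected) had lower medians in both CDH11 KD groups, 2345 CPM with sh#1 and 2093 with sh#2 against 3745 with shCtrl, with ranges of 1055 to 2787, 1805 to 5026 and 1484 to 4963. Endothelium markers (3 of 3 detected) had medians of 206 CPM with shCtrl, 219 with sh#1 and 217 with sh#2. Red cell markers (6 of 6 detected) had medians of 10017, 13922 and 10039 CPM, and keratinocyte markers (3 of 4 detected) 0, 7.74 and 0 CPM. The part of these host cells in the CA12 values was not tested. In bulk tumors, fewer cells of a type and less RNA per cell cannot be told apart.

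SLC4A7 stood at 112, 131, 154, 66.7 and 162 CPM in shCtrl tumors. It stood at 203, 136, 161, 115 and 152 CPM with sh#1 and at 166, 130, 150, 159 and 155 CPM with sh#2. The groups overlapped, although 9 of 10 CDH11 KD tumors lay above the shCtrl mean, and the highest value was in sh#1 tumor 1. Means were 125 ± 38.2 CPM (SD, n = 5) in shCtrl, 153 ± 32.6 in sh#1 and 152 ± 13.6 in sh#2. The log2 difference of CDH11 KD was 0.29 ± 0.15, with a 95% interval from -0.01 to 0.60 (edgeR adjusted p = 0.412). This value leaned on shCtrl tumor 4, the lowest at 66.7 CPM: without it the log2 difference was 0.12 for CDH11 KD, 0.11 with sh#1 and 0.13 with sh#2. Between sh#1 and sh#2 it was -0.02 ± 0.18 with an interval from -0.38 to 0.34 (edgeR adjusted p = 0.986).

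CA9 had 0, 0, 0, 2 and 1 counts in shCtrl tumors. It had 3, 3, 3, 6 and 2 counts with sh#1 and 0, 3, 5, 0 and 1 with sh#2. All 5 sh#1 tumors had CA9 counts, against 2 of 5 shCtrl tumors and 3 of 5 sh#2 tumors. A floor of 3 counts corresponded to 2.41 to 8.32 CPM in these libraries, so most tumors were at or under it.

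The mean level of CA9 in tumors was 0.662 ± 0.911 CPM (SD, n = 5) with shCtrl and 3.42 ± 2.66 CPM (SD, n = 10) in CDH11 KD, a difference of 2.75 CPM with 8 of 10 tumors above the shCtrl mean (two-sided exact permutation p = 0.0240). This was 1 of 3 exact tests on members below the filter, and the adjusted value over them was 0.0719 (exact permutation, Benjamini-Hochberg), above the 0.05 used for these tests. Leaving out shCtrl replicate 1, 2 or 3, each at 0 counts, gave 2.59 CPM (exact permutation p = 0.0539). The ratio of pooled counts was 5.19 with a 95% counting interval from 1.59 to 26.8. In the fit of all genes without a filter the log2 difference was 2.11 ± 0.75, which did not pass the threshold of 0.1 (edgeR adjusted p = 0.234). ARHGEF39, which shares bases with CA9, had a log2 difference of 0.46 ± 0.27 in tumors (edgeR adjusted p = 0.494).

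CA2 had 0, 3, 3, 2 and 0 counts in shCtrl tumors, 0, 1, 2, 1 and 5 with sh#1, and 0, 0, 1, 0 and 2 with sh#2. The difference of CDH11 KD from shCtrl was -0.272 CPM (two-sided exact permutation p = 0.744), and the ratio of pooled counts was 0.899 with a counting interval from 0.338 to 2.54. At this depth neither direction could be read for CA2.

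**Figure D2:**
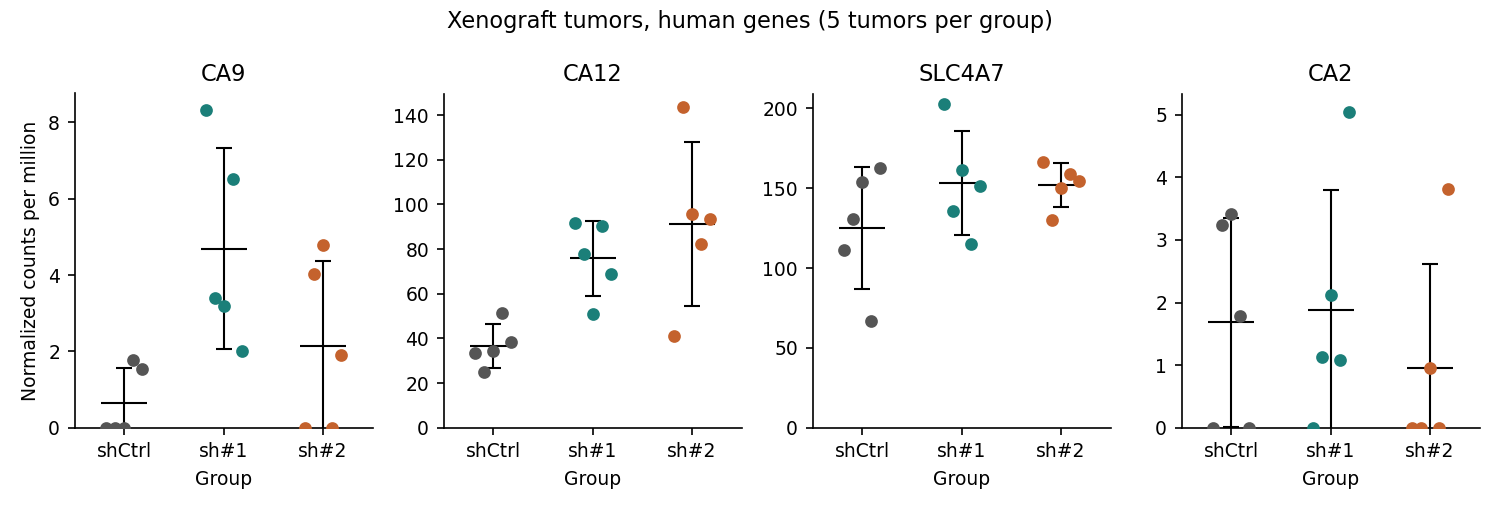
Normalized CPM of human CA9, CA12, SLC4A7 and CA2 in xenograft tumors with shCtrl, sh#1 and sh#2, each panel on its own linear axis from 0. Points are tumors (5 per group), horizontal lines are means and bars are ± 1 SD, cut at 0. CA12 lies between 24.9 and 51.6 in shCtrl tumors and between 41.2 and 144 in CDH11 KD tumors, while CA9 and CA2 rest on 0 to 6 counts.

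**Figure D3:**
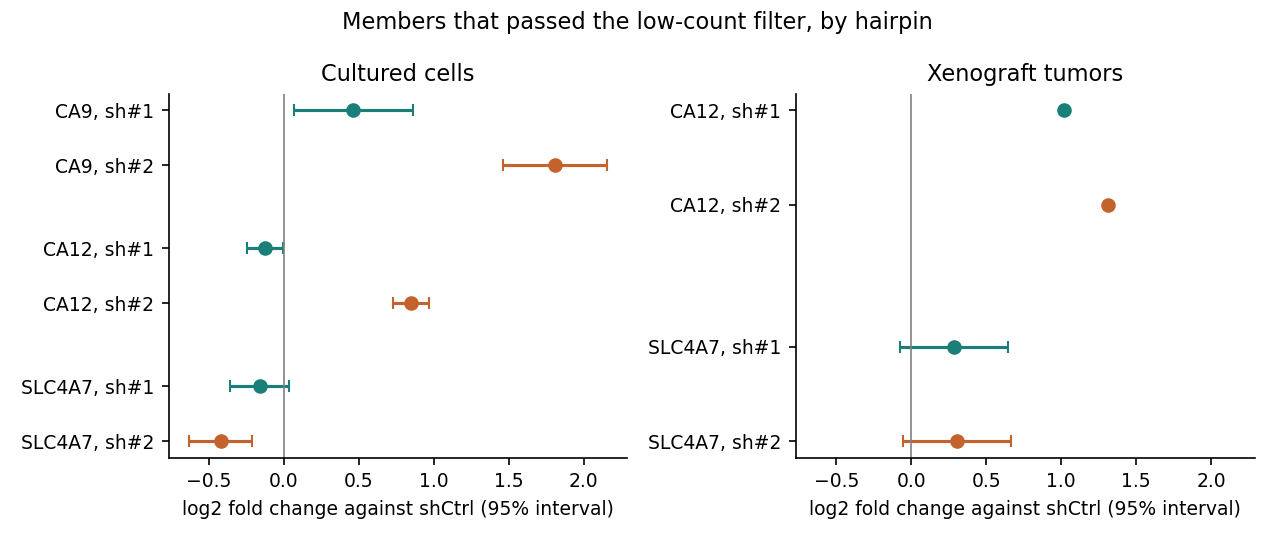
Log2 fold change of each hairpin against shCtrl for the members that passed the low-count filter, in cultured cells (left) and tumors (right). Points are edgeR estimates and bars are 95% intervals, which are left out for CA12 in tumors because it was chosen by these values. In cultured cells the intervals of sh#1 and sh#2 are apart for CA9 and CA12, while in tumors those of SLC4A7 overlap between hairpins.

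The mouse counterparts were read in the same tumors, since host cells could carry them and reads of one species can be counted in the other. Car9 had at most 1 count and Car12 at most 2 counts in any tumor. Car2, a gene of red cells among others, had 0 to 3 counts in shCtrl tumors, 0 to 1 in sh#1 and 1 to 6 in sh#2. Slc4a7 had 5 to 13, 3 to 7 and 7 to 13 counts. Mouse counts of Car9 and Car12 were thus at or near 0 in all groups. Summed human counterparts of the fibroblast markers had medians of 2.05 CPM with shCtrl, 1.32 with sh#1 and 1.31 with sh#2 in culture. In tumors these medians were 72.9, 48.0 and 79.8 CPM. Whether mouse reads entered these human counts was not tested.

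Levels in the 2 systems are set side by side without a test. The tables came from separate libraries, different sequencing instruments and different mapping, and were normalized separately. Growth system and processing therefore cannot be told apart. In shCtrl samples CA12 stood at 604 ± 17.5 CPM (SD, n = 3) in culture and at 36.5 ± 9.73 CPM (SD, n = 5) in tumors. CA9 stood at 14.0 ± 3.53 CPM in culture and at 0.662 ± 0.911 CPM in tumors. SLC4A7 went the other way, with 92.3 ± 6.03 CPM in culture and 125 ± 38.2 CPM in tumors. The order of CA12 levels was therefore sh#2 in culture (1086 ± 58.9 CPM), shCtrl in culture, sh#1 in culture (553 ± 24.3 CPM), sh#2 tumors (91.3 ± 36.6 CPM), sh#1 tumors (75.9 ± 16.8 CPM) and shCtrl tumors. Within it, the differences of sh#1 from shCtrl in culture, and of sh#1 from sh#2 in tumors, did not pass the thresholds in the tests above.

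A list of 74 other genes of acid-base balance, chosen for known function, gave the setting of the members. In cultured cells 39 of them passed the low-count filter, and 4 rose and 3 fell in CDH11 KD, which is 17.9% of those tested against 17.4% of all genes, of which 9.12% rose and 8.32% fell. Their median log2 difference was 0.07, against 0.00 over all genes tested. With sh#1 alone 4 rose and 6 fell, against 11.8% and 10.6% of all genes. With sh#2 alone 9 rose and 4 fell, 33.3% of those tested, against 19.5% and 18.8% of all genes. In either direction together, the shares called were 25.6% with sh#1 and 33.3% with sh#2, against 22.4% and 38.3% of all genes. The counts by direction rest on few genes. The counts in CDH11 KD leaned on single libraries: 1, 2 and 1 rose without shCtrl replicate 1, 2 and 3, and 1 fell without shCtrl replicate 1, shCtrl replicate 2 or sh#1 replicate 3.

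Of 5 tested genes of monocarboxylate transport, 2 rose and 1 fell in CDH11 KD, 60% against 17.4% of all genes. That share rests on few genes. SLC16A3, a lactate exporter of glycolytic cells, went from 47.2 ± 6.74 CPM (SD, n = 3) to 76.8 ± 6.27 (SD, n = 6), a log2 difference of 0.70 ± 0.12 (edgeR adjusted p = 0.000724). BSG, the chaperone that brings these transporters to the membrane, rose by a log2 difference of 0.47 ± 0.14 (edgeR adjusted p = 0.0294) and differed between hairpins by -0.46 ± 0.08 (edgeR adjusted p = 2.67e-05). EMB, a relative of BSG with a similar role, fell by a log2 difference of -0.52 ± 0.17 (edgeR adjusted p = 0.0453).

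Among 18 tested genes of the V-ATPase, the proton pump of endosomes and lysosomes, 2 rose and 1 fell. These were 16.7% of those tested, near the 17.4% of all genes. ATP6V1E1 and ATP6V1H, subunits of its cytosolic part, rose by log2 differences of 0.41 ± 0.12 and 0.57 ± 0.17 (edgeR adjusted p = 0.0272 and 0.0281). With sh#1 alone ATP6V1H did not pass, at 0.46 ± 0.18 (edgeR adjusted p = 0.0537). ATP6V0C, a subunit of its membrane ring, fell with a log2 difference of -0.27 ± 0.09 (edgeR adjusted p = 0.0391).

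Of 5 other bicarbonate transport genes, 20% were called in CDH11 KD against 17.4% of all genes, with 0 that rose and 1 that fell. This was AHCYL1, a regulator of bicarbonate transporters and of calcium release, which went from 435 ± 21.0 CPM (SD, n = 3) to 335 ± 12.6 (SD, n = 6), a log2 difference of -0.38 ± 0.08 (edgeR adjusted p = 0.00261). AHCYL1 fell with each hairpin, at log2 differences of -0.39 ± 0.06 with sh#1 and -0.36 ± 0.06 with sh#2 (edgeR adjusted p = 2.82e-06 and 6.69e-06).

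Of 12 other carbonic anhydrase genes, CA5B, CA11 and CA13 passed the filter in culture, and 0 passed the threshold in CDH11 KD. With sh#2 alone CA11, which encodes a related protein without catalytic activity, went from 5.79 ± 0.326 CPM (SD, n = 3) to 2.23 ± 1.10 (SD, n = 3). Its log2 difference was -1.36 ± 0.46 (edgeR adjusted p = 0.0160), opposite to CA9 and CA12.

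**Figure D4:**
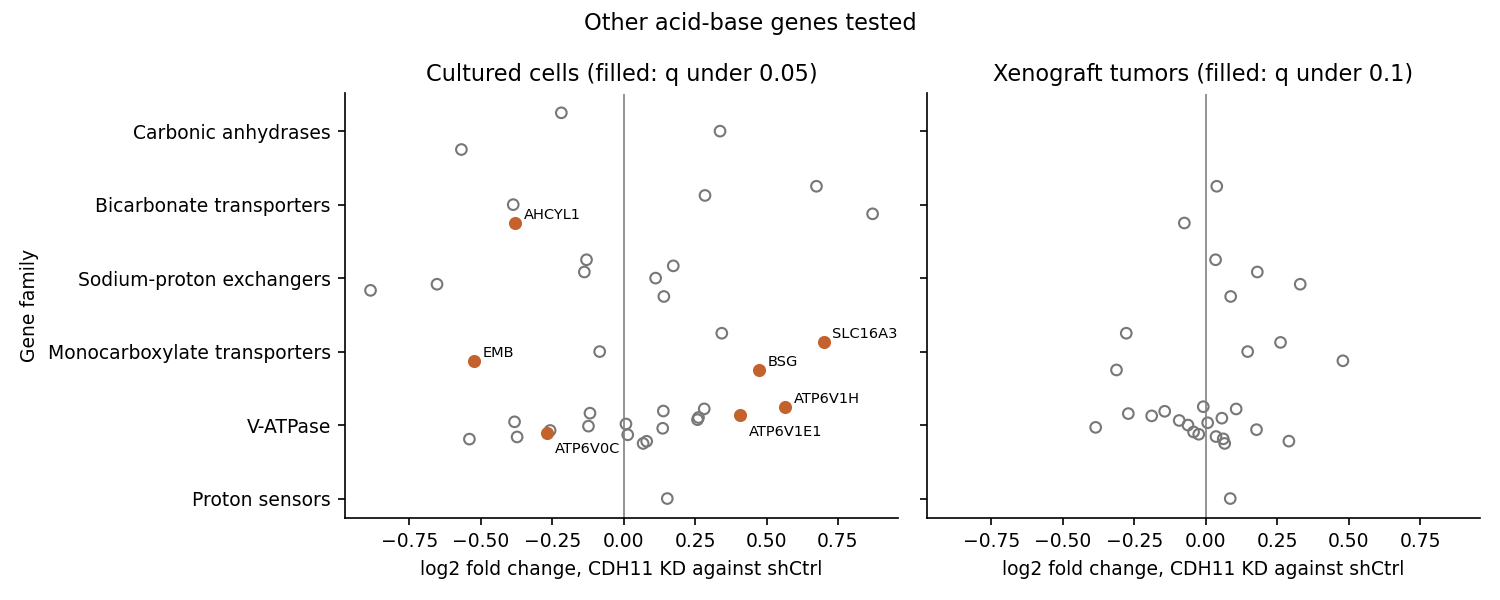
Log2 fold change of CDH11 KD against shCtrl for the other acid-base genes tested, by gene family, in cultured cells (left, 39 genes) and tumors (right, 29 genes). Each circle is a gene, filled and named where it passed the threshold (0.05 in cells, 0.1 in tumors), with vertical offsets only to separate circles. In cells 4 genes are filled to the right of 0 and 3 to the left, and in tumors none is filled.

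In tumors 29 of the 74 other genes were tested, and edgeR called 0 of them in CDH11 KD against 1.51% of all genes. DESeq2 also called 0, and 2 had an unadjusted p under 0.05, EMB with a log2 difference of 0.48 (edgeR adjusted p = 0.158) and BSG with -0.31 (edgeR adjusted p = 0.189). Both values were opposite in sign to those of the cultured cells. SLC16A3 had 0.26 (edgeR adjusted p = 0.853), and its highest level, 105 CPM, was in sh#1 tumor 1, against 13.0 to 49.0 CPM in the other tumors. None of the other carbonic anhydrases passed the filter in tumors, where CA12 was the tested member of the family.

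The genes whose levels followed the members most closely over libraries were listed as a description. Over the 9 cultured libraries CA9 went with XRN2 (Pearson r = 0.993), RBPJ (0.992) and NDUFB8 (0.989), and CA12 with FTH1 (0.996), P4HB (0.991) and TPM2 (0.991). SLC4A7 went with ALDH1B1 (0.976), UBL4A (0.971) and LRRC47 (0.968). These points fall into groups by hairpin, so any gene set apart with sh#2 scores high. Over the 15 tumors CA12 went with DCK (0.811), VEGFA (0.809) and AC098614.3 (0.792). SLC4A7 went with THOC2 (0.905), ERBIN (0.894) and GPATCH2L (0.874) in tumors. CA12 was chosen by its rise in CDH11 KD tumors. The r values over tumors were not adjusted for group, so a gene higher in CDH11 KD tumors can score high with CA12. The tumors of a group share a library mix.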

How the data were processed

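RNA-seq counts of 9 cultured libraries and 15 tumors were analysed. The values are unnormalized counts of single reads per gene, as the authors deposited them. Human genes were mapped to hg38, and the methods name no reference for the mouse genes. The authors' methods name CLC Genomics Workbench and RaNAseq for the cultured cells and trim galore and HISAT2 for the tumors. The counting tool, strand setting, use of molecular identifiers and separation of human from mouse reads are not given in the sources used here. Of the cultured table, 13 genes are not analysed here.

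On these counts, edgeR 4.0.16 in R 4.3.3 (TMM, filterByExpr, robust quasi-likelihood test) was fitted over all genes, with p adjusted after Benjamini-Hochberg. Both hairpins together (CDH11 KD) were compared with shCtrl at thresholds of 0.05 in cells and 0.1 in tumors, and a model of 3 groups gave the contrasts of single hairpins. Members below the filter were compared by exact permutation of CPM with a threshold of 0.05. Members and gene lists were chosen with earlier results of these data known. Named were the members, CDH11, listed acid-base genes past the threshold in CDH11 KD (at most 10 per system and direction), and the 3 tested genes with the highest Pearson r of log2 CPM (prior count 2, mean of at least 20 counts). ARHGEF39, CA11, the line's markers and the tumor values of EMB, BSG and SLC16A3 were chosen after their values were seen. One further gene of the acid-base list is not reported here. Promoters were those of RefSeq.

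On simulated counts with known changes, edgeR recovered 87.4% of genes changed 2-fold in 9859 cultured genes with 5.35% of calls false. In 9184 tumor genes it recovered 93.6% of genes changed 2-fold with 10.8% of calls false. Recovery was not tested separately for genes that differ between hairpins, 24.7% of those tested in culture. The shares recovered may not hold for such genes in CDH11 KD. Alternatives were DESeq2 1.42.0, upper quartile scaling, no filter, a minimum of 10 counts, leaving out each library, a replicate block, the 3-group mean, the mouse-to-human ratio as a term, and, chosen after seeing the data, CPM without normalization factors for CA2 and CA9. Intervals of ratios cover counting error only. Counts of every replicate pair differed beyond sampling noise, so each library was kept.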

Additional observations from a re-analysis of the deposited data

Results flagged for a closer look

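CA9 in cultured cells responded differently to the 2 hairpins: the log2 difference of sh#1 minus sh#2 was -1.34 by edgeR, with 19.2 ± 1.74 CPM (SD, n = 3) for sh#1 and 49.0 ± 3.96 CPM (SD, n = 3) for sh#2. CA12 differed in the same comparison by -0.97, with 553 ± 24.3 CPM for sh#1 and 1086 ± 58.9 CPM for sh#2. The reason for these differences was not tested. CA2 in sh#2 tumor 5 stood at 3.82 CPM, which is 2 counts, far from the other 4 tumors of its group, 3 of which had 0 counts. It was the 1 such sample in 12 groups of 5 tumors examined. For continuous values chance sets such a sample apart in about 1 of 20 groups, a rate that need not hold for counts this low.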

How the results depend on the processing

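The differences of CA9, CA12 and SLC4A7 with sh#2 and those of CA9 and CA12 between hairpins in cultured cells kept direction and call under every alternative that could be fitted. No value that had passed a threshold reversed under the alternatives run. For CDH11 KD in cultured cells CA9 passed with DESeq2 (1.28) and with 3 groups (1.14), and without each library it ranged from 1.08 to 1.45. CA12 passed with 3 groups (0.36), as did SLC4A7 (-0.29), and SLC4A7 between hairpins passed with upper quartile scaling (0.28). Calls with 3 groups rest on spread within hairpins only. CA9 with sh#1 ranged from 0.28 to 0.65 without each library and passed without shCtrl replicate 1. The CA9 difference in tumors ranged from 2.21 to 3.14 CPM and lost its unadjusted call without shCtrl replicate 1, 2 or 3. The cause was not tested.

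Acid-base genes that rose in cultured cells numbered 7 with 3 groups and 1 to 4 without each library, with 1, 2 and 1 without shCtrl replicate 1, 2 and 3. Those that fell numbered 7 with 3 groups, 1 without a filter, and 1 to 4 without each library, with 1 each without shCtrl replicate 1, shCtrl replicate 2 or sh#1 replicate 3. In tumors both counts were 0 under all 22 alternatives.

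Correlations of same-numbered deviations were small, -0.005 to 0.055 in cells and -0.096 to 0.126 in tumors. Those of other numbers were -0.055 to 0.044 in cells and -0.192 to 0.187 in tumors. In cells 7 of 9 libraries correlated best with their own number, and in tumors 4 of 15. Whether same-numbered cultured libraries share a batch was not tested. With the replicate number as a block, CA9 in CDH11 KD was 1.27, and 3 acid-base genes rose and 1 fell in cells.

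For CA2, and for CA9 in tumors, the alternatives to the fit, other than no filter, could not be run because they fell below its filter. Few counts limit both genes: 3 counts are 2.41 to 8.32 CPM in tumors.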
